A study of Saccharomyces cerevisiae with 22 samples.

Results

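Gcn4 is a bZIP transcription factor of Saccharomyces cerevisiae that switches on amino acid biosynthesis when amino acids run short. Its own level is set largely by translation: the kinase Gcn2 senses uncharged tRNA, and short upstream reading frames on the GCN4 messenger then let more Gcn4 protein be made. Its target genes cover most amino acid pathways, and in cells supplied with amino acids they are transcribed at a basal rate. The genes described here are GCN4 and 39 genes of amino acid biosynthesis commonly listed in its regulon, 40 of the 6353 features tested. They were chosen by gene symbol, and each was read by 1 probe spotted 2 times. There were 6 genes of arginine synthesis, 4 of histidine, 6 of lysine, 9 of the branched-chain amino acids, 8 of the aromatic amino acids, 3 of serine and 3 of the aspartate family.

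What was measured was newly made RNA. Cells in synthetic complete medium, which supplies amino acids, received 5 mM 4-thiouracil (4tU) shortly before harvest, and RNA that had taken it up was isolated and hybridised to spotted arrays with 2 dyes. In the anchor-away strain Hsf1-aa, the heat-shock factor Hsf1 carries an FRB-yEGFP tag, and rapamycin joins it to an FKBP12-tagged ribosomal protein, Rpl13A, that carries it away from nuclear DNA. The control strain WT-aa lacks this tag. Both strains carry tor1-1, a deleted FPR1, RPL13A-FKBP12-NAT and MET15, and are his3-1, leu2, lys2, ura3 and of mating type alpha. The slow course followed Hsf1-aa and WT-aa over 0, 15, 30, 60 and 90 min in 0.15 µM rapamycin. Each strain had 2 arrays at each time, called replicates a and b. The standard depletion gave 1 array of Hsf1-aa and 1 of WT-aa at 30 min of 7.5 µM rapamycin. On a slow array each value is the log2 ratio of the sample to pooled 4tU RNA of WT-aa cultures that saw no rapamycin, so 0 means the level of that pool. Arrays a carried the sample in Cy3, arrays b in Cy5. The series gives 2 independent cultures per group. The titles carry 1 running number for both replicates. If the replicates were dye swaps of 1 culture, the errors and p-values below would cover technical spread alone.

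All 40 genes were above background on all 22 arrays. On the slow arrays their signals were 8.39 to 799 times the local background, and no spot of theirs reached the scanner limit. The labels were checked on genes of the strain construction, and the marker genes differed in their signal. HSF1 RNA was lower in Hsf1-aa already before rapamycin, by 2.17 on the log2 scale (limma, adjusted p = 0.000971). LEU2 had a median signal of 1.45 times background in Hsf1-aa, against 1.42 times in WT-aa. URA3 was also near background, at 1.58 times in Hsf1-aa and 1.57 times in WT-aa. LYS2 was above it, at 3.47 and 3.19 times, and so was HIS3, at 8.58 and 9.26 times. Of the 7 strain construction genes measured, HSF1 alone differed between strains over the rapamycin times, while TOR1, RPL13A and LYS2 passed the test over time described below. The arrays of 30 min stood apart: their array weights were 0.449 for Hsf1-aa and 0.442 for WT-aa, the lowest of the course. WT-aa 30 min replicate a had the widest spread over features (SD 0.279), and correlated at r = -0.388 with WT-aa 0 min replicate a. The dyes are stated in the labels, so its direction was kept. That array was the highest or the lowest of the 20 for 20 of the 40 genes (9 high, 11 low), and for 37.7% of all features. The tests over several times are therefore also given without these 4 arrays. The correlations and branch medians are not.

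**Figure D1:**
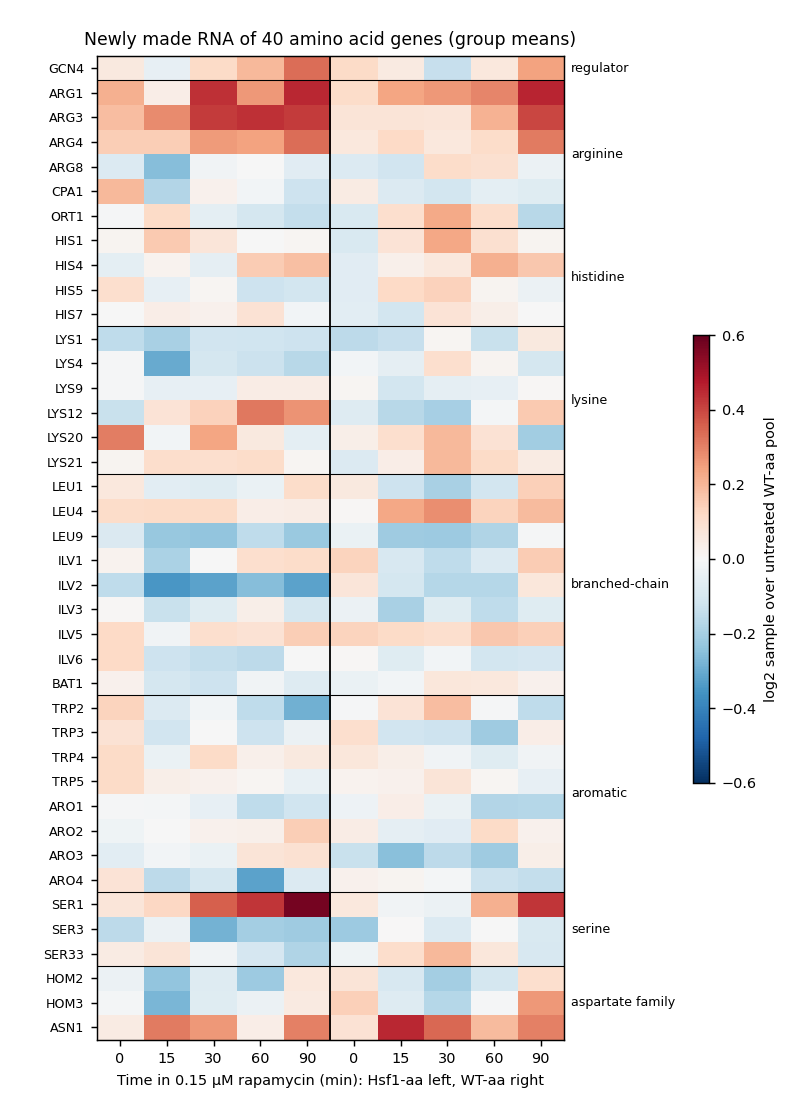
Mean log2 ratio of sample over the untreated WT-aa pool for the 40 genes (rows, grouped by pathway branch) at 0 to 90 min (columns), Hsf1-aa left and WT-aa right, 2 arrays per cell. ARG1, ARG3, ARG4 and SER1 are above 0 at 90 min in both strains, ILV2 is below 0 at the rapamycin times in Hsf1-aa, and most cells lie within 0.2 of 0.

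Before rapamycin no difference between Hsf1-aa and WT-aa passed the test in these genes. At 0 min 0 of 40 passed an adjusted p of 0.05, where 0.126% of all features did, and 1 of 40 had an unadjusted p under 0.05 (limma). The median difference, Hsf1-aa minus WT-aa, was 0.045 over the 40 genes and 0.0026 over all features. The differences ran between -0.22 for ILV2 (the catalytic subunit of acetolactate synthase) and 0.28 for LYS20 (a homocitrate synthase). LYS20 had values of 0.28 and 0.34 in Hsf1-aa, against -0.022 and 0.089 in WT-aa. Its adjusted p was 0.998, as were those of CPA1 (difference 0.14) and ILV2, which stood next by test statistic. Over the 40 genes the 95% intervals at 0 min had a median half-width of 0.20, and none reached beyond -0.48 or 0.55. GCN4 was at -0.075 and 0.19 in Hsf1-aa, against 0.14 and 0.099 in WT-aa (difference -0.061 ± 0.11, adjusted p = 0.998).

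Under rapamycin, small strain differences passed the test in few of these genes. Averaged over 15, 30, 60 and 90 min, ARG3 and SER1 were higher in Hsf1-aa and LYS4 was lower. That is 3 of 40 genes (7.5%) at an adjusted p of 0.05, where 4.28% of all features passed, 1.64% higher and 2.64% lower. At an unadjusted p under 0.05 the count was 14 of 40 (35%), against 32.0% of all features, so the share of these genes that differed lay near that of the genome. The median difference was -0.026 over the 40 genes and -0.0064 over all features. The largest estimate was that of LYS12, homoisocitrate dehydrogenase, at 0.26 ± 0.085, which did not pass (adjusted p = 0.0836).

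ARG3 codes for ornithine carbamoyltransferase, which makes citrulline in the arginine pathway. At 15 min its values were 0.31 and 0.26 in Hsf1-aa, against 0.039 and 0.11 in WT-aa. At 30 min they were 0.46 and 0.38 in Hsf1-aa, against 0.032 and 0.11 in WT-aa. At 60 min they were 0.41 and 0.47 in Hsf1-aa, against 0.15 and 0.26 in WT-aa. Both Hsf1-aa arrays thus lay above both WT-aa arrays at each of these times. At 90 min the strains overlapped, with 0.37 and 0.48 in Hsf1-aa, against 0.32 and 0.48 in WT-aa. The average difference over the rapamycin times was 0.20 ± 0.031 (SE; adjusted p = 0.00184), or 1.15-fold. At 0 min it was already 0.11 ± 0.063 (adjusted p = 0.998). Both Hsf1-aa arrays, at 0.14 and 0.23, lay above both WT-aa arrays, at 0.050 and 0.10, before rapamycin too. The difference over the rapamycin times stayed past the threshold in 29 of 30 alternatives and without the arrays of 30 min (0.15, adjusted p = 0.0229).

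SER1 codes for phosphoserine aminotransferase of serine synthesis. At 30 min it had values of 0.48 and 0.24 in Hsf1-aa, against -0.21 and 0.14 in WT-aa. At 60 min the values were 0.36 and 0.49 in Hsf1-aa, against 0.10 and 0.32 in WT-aa. Over the 8 rapamycin arrays of each strain SER1 ran from 0.063 to 0.61 in Hsf1-aa (median 0.42) and from -0.21 to 0.50 in WT-aa (median 0.12). The ranges overlapped, and the average difference was 0.22 ± 0.055 (adjusted p = 0.0369). The other genes of the serine branch, SER3 and SER33, code for isozymes of 3-phosphoglycerate dehydrogenase, the step before SER1. Their average differences were -0.14 and -0.12, and neither passed (adjusted p = 0.155 and 0.0900).

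LYS4 codes for homoaconitase, of the lysine pathway. It had values of -0.23 and -0.37 in Hsf1-aa at 15 min, against -0.033 and -0.078 in WT-aa. Over the rapamycin arrays it ran from -0.37 to -0.024 in Hsf1-aa (median -0.18) and from -0.11 to 0.21 in WT-aa (median -0.035), so the ranges overlapped. The average difference was -0.16 ± 0.042 (adjusted p = 0.0443). The calls of LYS4 and SER1 were each held in 13 of 30 alternatives. With single arrays left out, LYS4 stayed past the threshold in 6 of 20 fits and SER1 in 7 of 20. Both passed without the arrays of 30 min (adjusted p = 0.0386 for LYS4 and 0.0334 for SER1).

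Without the 4 arrays of 30 min, an alternative chosen after seeing the data, 5 of 40 genes differed over the rapamycin times, where 8.59% of all features did. They were ARG3, SER1 and LYS4, and in addition ILV2 (-0.24, adjusted p = 0.00516) and ARO3 (0.19, adjusted p = 0.0458). ARO3 codes for a DAHP synthase, the entry enzyme of aromatic synthesis. With all times ILV2 stood at -0.22 (adjusted p = 0.0563) and ARO3 at 0.17 (adjusted p = 0.0783). ILV2 ran from -0.46 to -0.18 in Hsf1-aa under rapamycin and from -0.37 to 0.10 in WT-aa. Its difference of -0.22 at 0 min, which did not pass, was as large as under rapamycin.

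The count over the rapamycin times depended on single arrays. It was 15 without WT-aa 30 min b (25.1% of all features then passed) and 14 without Hsf1-aa 30 min b (30.5%). It was 1 without Hsf1-aa 15 min a or b, Hsf1-aa 60 min a or b, Hsf1-aa 90 min b, WT-aa 15 min a or b, WT-aa 60 min a, or WT-aa 90 min a or b (2.39% to 3.51% of all features).

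**Figure D2:**
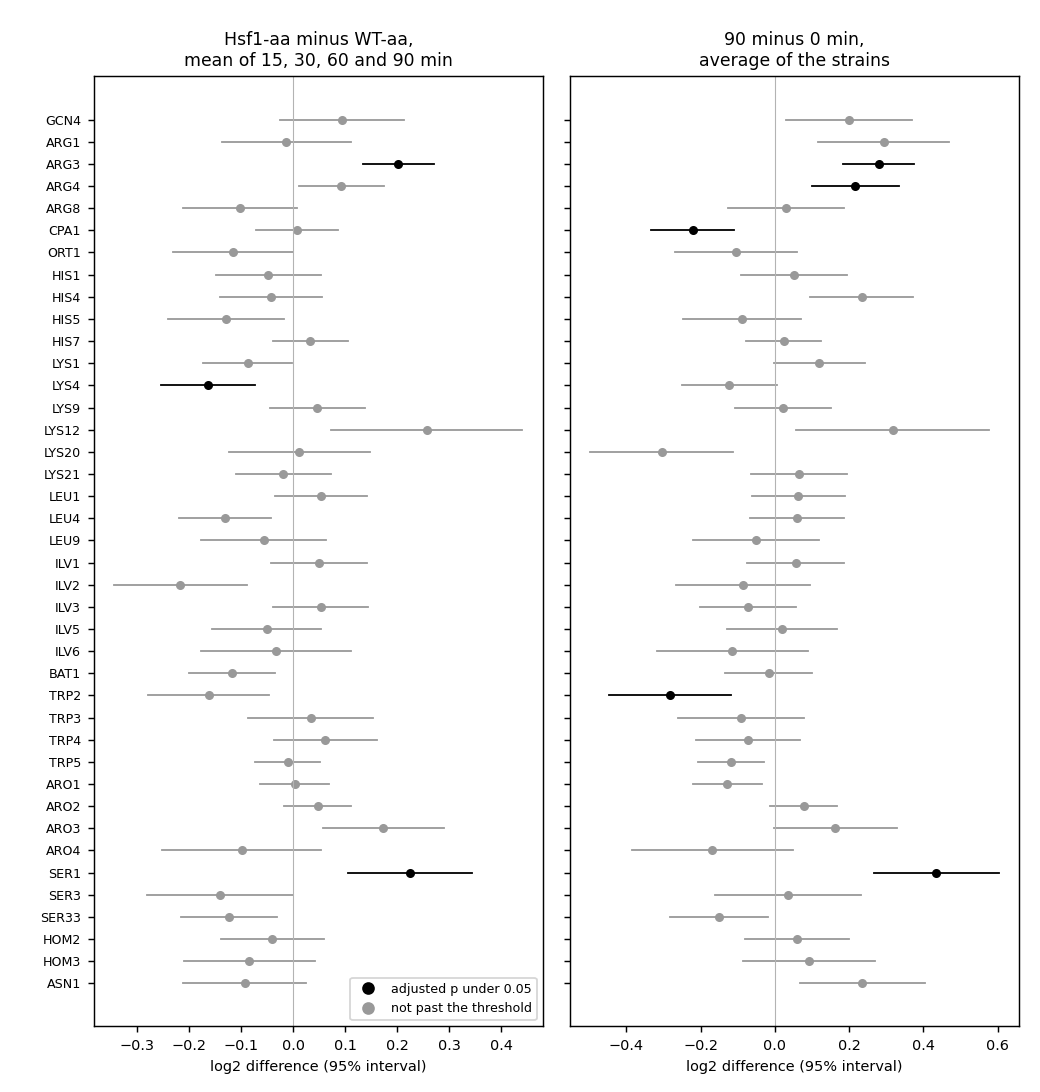
Fitted log2 difference (point) and 95% interval (line) for each of the 40 genes, for Hsf1-aa minus WT-aa averaged over 15 to 90 min (left) and for 90 minus 0 min averaged over the strains (right). ARG3, SER1 and LYS4 pass the threshold on the left and ARG3, SER1, ARG4, CPA1 and TRP2 on the right (black).

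Taken time by time, a strain difference passed for 1 gene at 1 time. At 30 min it was ARG3 (0.35 ± 0.063, adjusted p = 0.0166), 1 of 40 genes where 0.787% of all features passed. SER1 was next at 0.39 ± 0.11 (adjusted p = 0.252). ORT1, the mitochondrial ornithine transporter, followed at -0.28 ± 0.11 (adjusted p = 0.364). At 30 min the replicates gave the strain difference the same sign for 18 of 40 genes (45%) and for 35.3% of all features. The ARG3 call was lost without Hsf1-aa 30 min a or WT-aa 30 min a. The count there was 7 without Hsf1-aa 30 min b (14.8% of all features) and 2 without WT-aa 30 min b (1.98%).

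At 15, 60 and 90 min 0 of 40 genes passed (limma), where 0.22%, 1.21% and 1.23% of all features did. Unadjusted p-values under 0.05 numbered 3, 4 and 2 of 40, against 9.71%, 16.1% and 3.97% of all features. By test statistic ARG3 (0.21), LYS4 (-0.25) and HIS7 (0.15) led at 15 min, with adjusted p of at least 0.409. ARG3 (0.23), ARO3 (0.29) and ILV3 (0.19) led at 60 min, with adjusted p of at least 0.165. ILV2 (-0.39), LYS1 (-0.18) and ARO2 (0.12) led at 90 min, with adjusted p of at least 0.318.

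The regulator itself was not found to differ. GCN4 had values of 0.23 and 0.0060 in Hsf1-aa at 30 min, against -0.22 and -0.061 in WT-aa, the widest of its strain differences (0.26 ± 0.11, adjusted p = 0.364). The differences were -0.10, 0.13 and 0.095 at 15, 60 and 90 min, with adjusted p of at least 0.492. Over the rapamycin times its difference was 0.095 ± 0.055 (adjusted p = 0.248). Over the 8 arrays of each strain it ran from -0.091 to 0.36 in Hsf1-aa and from -0.22 to 0.24 in WT-aa. These arrays read GCN4 RNA, not the translation that sets Gcn4 protein.

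The change of the strain difference since 0 min was tested directly. Time by time 0 of 40 genes passed (limma), where 0%, 0.11%, 0.661% and 0.756% of all features did at 15, 30, 60 and 90 min. Unadjusted p-values under 0.05 numbered 3, 7, 1 and 1 of 40, against 3.65%, 11.5%, 13.7% and 2.17% of all features. By test statistic LYS20, CPA1 and HIS5 led at 15 min, ARG3, ORT1 and SER1 at 30 min, ILV1, HIS5 and SER33 at 60 min, and CPA1, ARO2 and LEU4 at 90 min, with adjusted p of at least 0.356. In an F-test over the 4 rapamycin times 0 of 40 genes passed (limma), where 0.551% of all features did, and 1 of 40, ARG3, had an unadjusted p under 0.05 (adjusted p = 0.803). ILV1 and ARO2 stood next, also at an adjusted p of 0.803. The change of the GCN4 difference was -0.041, 0.32, 0.19 and 0.16 at 15, 30, 60 and 90 min (SE 0.16 each), with adjusted p of at least 0.387. No gene, ARG3 and SER1 included, was thus shown to have its strain difference altered by rapamycin. Over the 4 times the 95% intervals of the 40 genes had a median half-width of 0.282, and none reached beyond -0.78 or 0.91. Without the arrays of 30 min the count was also 0, where 0.756% of all features passed.

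More of these genes passed a test over time in rapamycin than between the strains. In the F-test of 15, 30, 60 and 90 min against 0 min, averaged over the strains, 9 of 40 genes (22.5%) passed, where 18.4% of all features did. At an unadjusted p under 0.05 it was 21 of 40, against 38.8% of all features. The 9 were ARG3, CPA1, HIS4, LEU1, ILV1, ARO1, SER1, HOM2 and ASN1. Without the arrays of 30 min it was 19 of 40 (47.5%), where 39.6% of all features passed, and those 19 held all of the 9. With and without them the share of these genes lay near that of all features, slightly above it. With median centring, and with some single arrays left out, the share of these genes was below that of all features. An excess in these genes was thus not shown. No course without rapamycin is among these arrays, so rapamycin and time in culture cannot be told apart.

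By 90 min 5 of 40 genes passed in the strain average, where 6.08% of all features did (2.53% higher, 3.54% lower). SER1, ARG3 and ARG4 rose, and TRP2 and CPA1 fell. SER1 stood at 0.54 and 0.61 in Hsf1-aa at 90 min, against -0.081 and 0.22 in Hsf1-aa at 0 min. In WT-aa it stood at 0.37 and 0.50 at 90 min, against 0.070 and 0.054 at 0 min. All 4 arrays of 90 min lay above all 4 of 0 min. The strain-averaged rise was 0.44 ± 0.077, or 1.35-fold (adjusted p = 0.00476), the largest of the 40 genes.

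ARG3 rose by 0.28 ± 0.044 (adjusted p = 0.00205). It stood at 0.37 and 0.48 in Hsf1-aa at 90 min, against 0.14 and 0.23 at 0 min. In WT-aa it stood at 0.32 and 0.48 at 90 min, against 0.050 and 0.10 at 0 min. The timing differed in appearance: the Hsf1-aa mean was 0.42 at 30 min, 0.44 at 60 min and 0.42 at 90 min, while the WT-aa mean was 0.071 at 30 min, 0.21 at 60 min and 0.40 at 90 min. The test of that difference is the F-test above, which ARG3 did not pass. The rises of SER1 and ARG3 at 90 min both stayed past the threshold in 29 of 30 alternatives, that of ARG4 in 19, and the falls of CPA1 and TRP2 in 22 and 17.

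ARG4, argininosuccinate lyase, which releases arginine in the last step, rose by 0.22 ± 0.054 (adjusted p = 0.0327). It stood at 0.34 and 0.33 in Hsf1-aa at 90 min, against 0.13 and 0.17 at 0 min. In WT-aa it stood at 0.35 and 0.28 at 90 min, against 0.064 and 0.067 at 0 min. ARG1, argininosuccinate synthase, gave 0.29 ± 0.081 and did not pass (adjusted p = 0.0522). Its WT-aa arrays of 90 min, at 0.58 and 0.33, lay above those of 0 min, at 0.062 and 0.16.

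CPA1 and TRP2 moved the other way. CPA1 codes for the small subunit of the arginine-specific carbamoyl phosphate synthetase and is known for repression by arginine through an upstream reading frame. It was lower by 15 min (-0.25 ± 0.052, adjusted p = 0.0164) and at 90 min (-0.22 ± 0.052, adjusted p = 0.0241). In Hsf1-aa it stood at 0.23 and 0.16 at 0 min, -0.058 and -0.30 at 15 min, and -0.032 and -0.21 at 90 min. In WT-aa it stood at 0.080 and 0.024 at 0 min, -0.075 and -0.090 at 15 min, and 0.054 and -0.20 at 90 min. At 90 min the WT-aa arrays overlapped those of 0 min. TRP2, a subunit of anthranilate synthase, was at -0.19 and -0.38 in Hsf1-aa at 90 min, against 0.23 and 0.040 at 0 min. In WT-aa it was at -0.037 and -0.27 at 90 min, against -0.040 and 0.026 at 0 min. Its strain-averaged change was -0.28 ± 0.076 (adjusted p = 0.0462).

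ASN1, an asparagine synthetase, rose early. At 15 min it was at 0.24 and 0.39 in Hsf1-aa, against -0.084 and 0.18 at 0 min. In WT-aa it was at 0.31 and 0.59 at 15 min, against -0.013 and 0.18 at 0 min. The average rise at 15 min was 0.32 ± 0.077 (adjusted p = 0.0361), and ASN1 stood 0.24, 0.048 and 0.24 above 0 min at 30, 60 and 90 min, none of which passed. The 15 min call was kept in 17 of 30 alternatives, and that of CPA1 in 23. With centring on the external control RNA its 15 min value was -0.012, beside a median of -0.276 over all features under that scaling, so relative to other genes it stayed high. At 15 min 2 of 40 genes passed in the strain average (CPA1 and ASN1), where 4.8% of all features did, and ILV1 was next (-0.22, adjusted p = 0.0552).

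**Figure D3:**
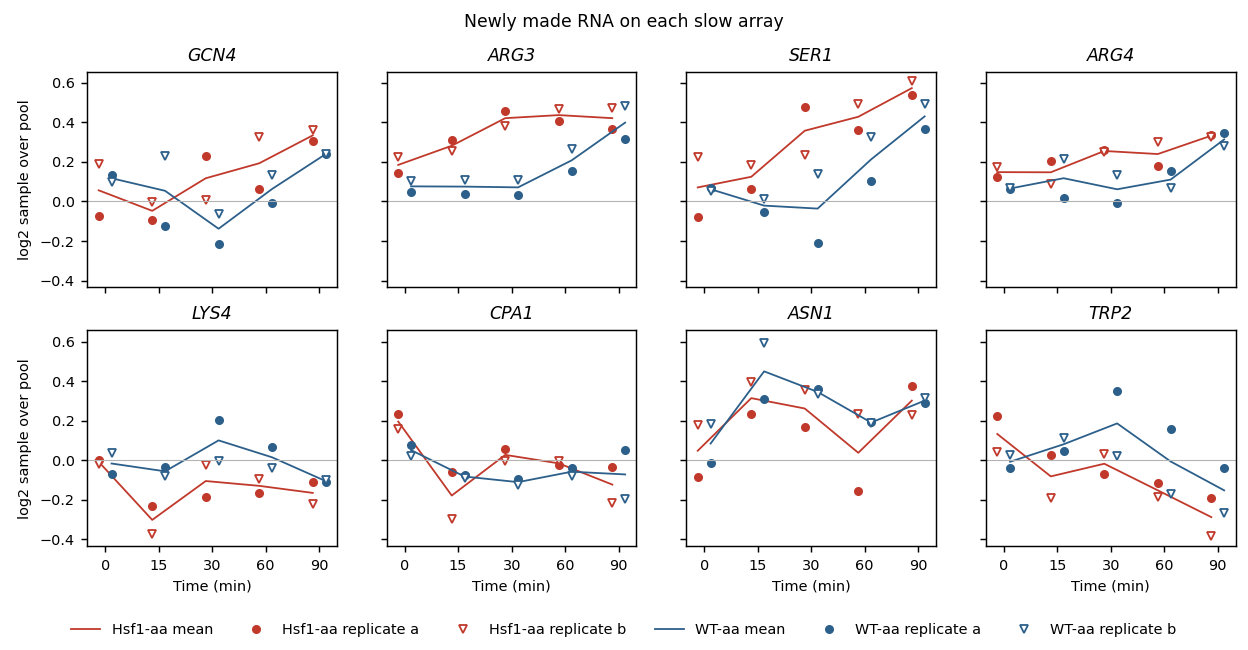
Log2 ratio of sample over the untreated WT-aa pool on each slow array for GCN4 and 7 genes that passed a test (times evenly spaced on the x axis). Filled circles are replicate a, open triangles replicate b, lines the means of 2 arrays, red Hsf1-aa and blue WT-aa. ARG3 and SER1 lie above WT-aa in Hsf1-aa at 30 and 60 min and the strains come close at 90 min, while CPA1 falls by 15 min.

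HIS4, LEU1, ILV1, HOM2 and ARO1 passed the F-test over time without passing at any single time in the strain average. HIS4, a multifunctional histidine enzyme long used as a reporter of Gcn4, stood 0.09, 0.068, 0.25 and 0.23 above 0 min at 15, 30, 60 and 90 min. At 60 min it was at 0.20 and 0.10 in Hsf1-aa, against -0.023 and -0.095 at 0 min. In WT-aa it was at 0.19 and 0.24 at 60 min, against -0.068 and -0.070 at 0 min, so in neither strain did the arrays of 60 and 0 min overlap. ARO1, the pentafunctional arom enzyme, stood 0.14 lower at 60 min and 0.13 lower at 90 min than at 0 min.

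LEU1, ILV1 and HOM2 dipped and came back by 90 min. LEU1 codes for isopropylmalate isomerase, ILV1 for threonine deaminase and HOM2 for aspartate semialdehyde dehydrogenase, upstream of threonine. Their strain averages were -0.16, -0.22 and -0.19 at 15 min and -0.19, -0.16 and -0.16 at 30 min. At 60 min they were -0.14, -0.066 and -0.18, so LEU1 and HOM2 were still low. At 90 min they were 0.063, 0.056 and 0.061. ILV1 was at -0.19 and -0.20 in Hsf1-aa at 15 min, against -0.038 and 0.081 at 0 min. In WT-aa it was at -0.14 and -0.051 at 15 min, against 0.076 and 0.19 at 0 min. Adjusted p over the F-test was 0.0275 for LEU1, 0.0306 for ILV1 and 0.0362 for HOM2. HOM3, aspartate kinase, gave -0.24 at 15 min and 0.091 at 90 min and did not pass (adjusted p = 0.0501).

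Apart from ARG3 and SER1, these F-test calls depended on single arrays. The count of 9 was 2 without WT-aa 15 min a or b (8.09% and 7.24% of all features). It was 3 without WT-aa 0 min a or b, WT-aa 90 min a or b, or Hsf1-aa 15 min b (6.53% to 11.4%). It was 4 without Hsf1-aa 0 min b or Hsf1-aa 90 min b (11.1% and 9.04%), and 5 without Hsf1-aa 0 min a or Hsf1-aa 90 min a (13.2% and 13.3%). It was 19 without Hsf1-aa 30 min a (36.4% of all features) and 20 without WT-aa 30 min b (36%).

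At 60 min the strain average passed for ARG3 (0.19 ± 0.044, adjusted p = 0.0406), 1 of 40 genes where 2.35% of all features did. That call was kept in 14 of 30 alternatives. HIS4 (0.25, adjusted p = 0.0711) and TRP3 (-0.26, adjusted p = 0.124) were next. At 30 min 0 of 40 passed (limma), where 0.708% of all features did. There 12 of 40 had an unadjusted p under 0.05, against 11.5% of all features, a share of 30% in these genes. By test statistic LEU1 (-0.19), CPA1 (-0.17) and LYS21 (0.18) led. GCN4 stood 0.083 and 0.097 below 0 min at 15 and 30 min, and 0.041 and 0.20 above it at 60 and 90 min. None passed, and its F-test gave an adjusted p of 0.0645. At 90 min GCN4 was at 0.31 and 0.36 in Hsf1-aa, against -0.075 and 0.19 at 0 min. In WT-aa it was at 0.24 and 0.24 at 90 min, against 0.14 and 0.099 at 0 min, so all 4 arrays of 90 min lay above all 4 of 0 min. Without the arrays of 30 min the GCN4 time course passed (adjusted p = 0.0233).

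Within each strain the tests had fewer arrays. Over the course in Hsf1-aa 1 of 40 genes passed, CPA1 (adjusted p = 0.0443), where 4.69% of all features did. SER1 (adjusted p = 0.0544) and ARG3 (0.0778) were next. In WT-aa 1 of 40 passed, ARG3 (adjusted p = 0.0466), where 1.34% of all features did, followed by SER1 (0.117) and LEU1 (0.123). Without the arrays of 30 min the counts were 9 in Hsf1-aa, where 20.7% of all features passed, and 5 in WT-aa, where 18% did. The 9 were GCN4, ARG3, CPA1, HIS4, LYS4, ILV1, TRP2, SER1 and SER33, and the 5 were ARG3, ORT1, HIS4, ILV1 and SER1. These calls were lost without most single arrays, and in those fits the share of all features that passed fell as well. The Hsf1-aa count was 0 without any 1 array of 0, 15 or 60 min of either strain or of 90 min of Hsf1-aa. It was 5 without Hsf1-aa 30 min a (12.1% of all features), 3 without Hsf1-aa 30 min b (10.6%) and 2 without WT-aa 30 min a or b (6.78%). The WT-aa count was 0 without WT-aa 30 min a or any 1 array of 0, 15, 60 or 90 min. It was 8 without WT-aa 30 min b (19.2% of all features) and 4 without Hsf1-aa 30 min a or b (10.5%). The shares of the 40 genes thus moved with those of all features.

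At 90 against 0 min, SER1 (0.50 ± 0.11, adjusted p = 0.0264) and CPA1 (-0.32 ± 0.073, adjusted p = 0.0348) passed in Hsf1-aa, where 2.69% of all features did. TRP2 was next at -0.42 ± 0.11 (adjusted p = 0.0615). In WT-aa ARG3 passed (0.32 ± 0.063, adjusted p = 0.0251), where 0.976% of all features did. SER1 gave 0.37 and ARG4 0.25 there, with adjusted p of 0.257 and 0.282. GCN4 stood at 0.28 ± 0.11 in Hsf1-aa, against 0.12 ± 0.11 in WT-aa, with neither past the threshold. CPA1 at 15 min in Hsf1-aa (-0.37 ± 0.073, adjusted p = 0.0312) was the other call within a strain, where 1.18% of all features passed. LYS4 followed it there at -0.29 ± 0.083 (adjusted p = 0.119).

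No gene passed at the remaining times within a strain (limma). In Hsf1-aa 0.693% of all features passed at 30 min and 1.98% at 60 min, and 3 and 8 of 40 genes had an unadjusted p under 0.05, against 4.34% and 19.5% of all features. ARG3 led at both, at 0.24 and 0.25 (adjusted p = 0.193 and 0.0658), followed by SER1 (0.29 and 0.36) and CPA1 (-0.17 and -0.21). In WT-aa 0.236%, 0.189% and 0.394% of all features passed at 15, 30 and 60 min, and 4, 13 and 5 of 40 genes had an unadjusted p under 0.05, against 17.4%, 22.2% and 9.38% of all features. ASN1 led at 15 min (0.37, adjusted p = 0.203), before LEU4 (0.23) and ILV1 (-0.23). HIS1 led at 30 min (0.33, adjusted p = 0.155), before LEU4 (0.27) and ILV1 (-0.29), and HIS4 at 60 min (0.28, adjusted p = 0.449), before TRP3 (-0.31) and ILV1 (-0.21). GCN4 was at -0.10, 0.061 and 0.14 in Hsf1-aa at 15, 30 and 60 min, and at -0.063, -0.26 and -0.054 in WT-aa, relative to 0 min of the same strain.

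The medians of 4 branches are set side by side here as a description, with no test between branches. The arginine branch was above 0 on all arrays of the course but 1. Its median over 6 genes was 0.17 and 0.13 in Hsf1-aa at 90 min, against 0.19 and 0.096 in WT-aa. At 0 min it was 0.14 and 0.17 in Hsf1-aa, against 0.056 and 0.045 in WT-aa. The median strain-averaged change at 90 min was 0.12 for arginine, 0.037 for histidine, 0.044 for lysine and -0.017 for the branched-chain branch, against -0.0010 over all features. The level of the arginine median in Hsf1-aa was the same at 90 as at 0 min, with a mean of 0.15 at both. In WT-aa it averaged 0.14 at 90 min, against 0.051 at 0 min. The pooled SD between replicate arrays of a branch median was 0.043 for arginine, 0.068 for histidine, 0.048 for lysine and 0.078 for the branched-chain branch.

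The arginine median hid a split. ARG1, ARG3 and ARG4 stood 0.29, 0.28 and 0.22 higher at 90 min. ARG8, acetylornithine aminotransferase, was 0.030 higher, ORT1 0.11 lower (neither passed) and CPA1 0.22 lower. So 3 of 6 genes passed in this branch, 2 up and 1 down. No gene of the histidine, lysine or branched-chain branch passed at 90 min, where 6.08% of all features did.

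The branched-chain branch was low early. At 15 min 8 of its 9 genes were below 0 in the strain average, with a median of -0.16, while 48.2% of all features were above 0. At 30 min again 8 of 9 were below 0, with a median of -0.14. LEU4, an isopropylmalate synthase, was above 0 at both times. None passed at a single time (limma), and 4 of 9 had an unadjusted p under 0.05 at each, against 22.5% and 11.5% of all features. The replicates disagreed on level: at 15 min the branch median was -0.19 and -0.0014 in Hsf1-aa, against -0.14 and -0.052 in WT-aa. Array a lay below array b in each strain, as it did at 0 min. There the median was -0.038 and 0.12 in Hsf1-aa, against -0.069 and 0.073 in WT-aa. Each array of 15 min thus lay below the array of the same letter and strain at 0 min. At 30 min the median was -0.15 and -0.062 in Hsf1-aa, against -0.22 and 0.032 in WT-aa.

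The histidine branch had medians of 0.055 at 15 min, 0.077 at 30 min, 0.088 at 60 min and 0.037 at 90 min in the strain average. All 4 genes were above 0 at 30 min. Those genes are HIS1 (the first enzyme, ATP phosphoribosyltransferase), HIS4, HIS5 (histidinol-phosphate aminotransferase) and HIS7 (imidazole glycerol phosphate synthase). WT-aa 30 min a, the array that stood apart, gave the highest branch median, 0.25, against 0.038 on WT-aa 30 min b. The lysine medians were -0.048, 0.061, 0.011 and 0.044 at the same times.

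Within the lysine branch single genes went apart. LYS12 stood 0.32 ± 0.12 higher at 90 min and LYS20 0.31 lower, and neither passed (adjusted p = 0.131 and 0.0628). LYS12 had the widest errors of the 40 genes. Its values at 60 min were 0.47 and 0.17 in Hsf1-aa, against -0.15 and 0.13 in WT-aa. LYS21, the other homocitrate synthase, was 0.065 higher at 90 min. LYS20 and LYS21, LEU4 and LEU9, and SER3 and SER33 are pairs of related genes. Probe sequences were not used here, and cross-hybridisation within a pair was not tested.

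In the strain difference over the rapamycin times the branch medians were -0.0025 for arginine, -0.045 for histidine, -0.0036 for lysine and -0.051 for the branched-chain branch. The median over all features was -0.0064. Of the 9 branched-chain genes, ILV2, LEU4 and BAT1 (a branched-chain aminotransferase) had unadjusted p under 0.05 (limma), at -0.22, -0.13 and -0.12. Their share of the branch lay near the share of all features given above for this comparison. None passed after adjustment, where 4.28% of all features did.

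**Figure D4:**
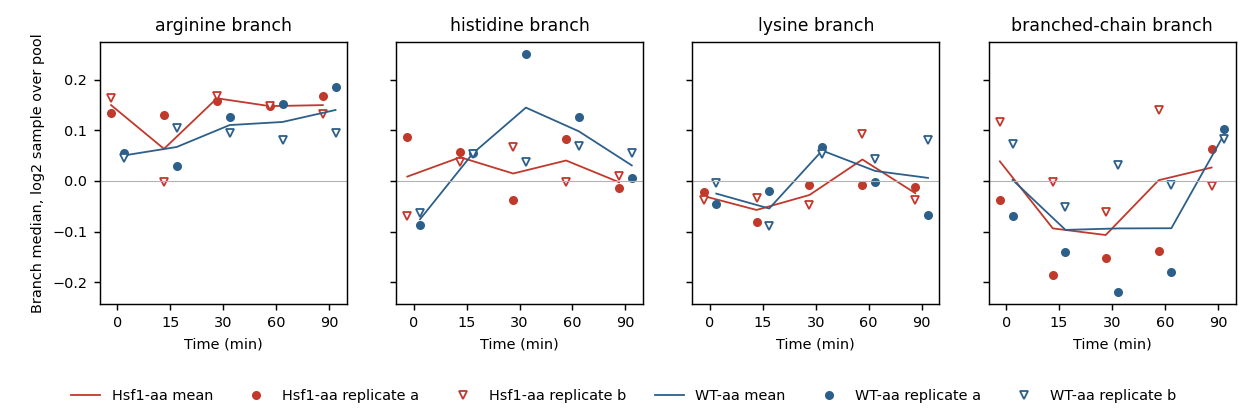
Median log2 ratio over the genes of each branch on each slow array, by time (evenly spaced), with replicate a as filled circles, replicate b as open triangles and lines for the means of 2 arrays. Red is Hsf1-aa and blue WT-aa. The arginine branch lies above 0 on all but 1 array, and the branched-chain branch lies below 0 on every array a from 15 to 60 min.

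Of the 8 aromatic genes 6 were below 0 at 90 min, with a median of -0.10. The median over all features is given with the branch medians above. TRP2 alone of the 8 passed, where 6.08% of all features did. TRP3, the other subunit of anthranilate synthase, TRP4 (anthranilate phosphoribosyltransferase) and TRP5 (tryptophan synthase) were at -0.091, -0.072 and -0.12. ARO2, chorismate synthase, was at 0.077, and the DAHP synthases ARO3 and ARO4 were at 0.16 and -0.17. None of these 6 genes passed.

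Pairs of the 40 genes went together or apart. Over the 10 group means correlations ran from -0.961 to 0.944, and the median correlation was 0.145 for the 106 pairs within a branch and 0.0539 for the 674 pairs between branches. These are descriptions over 10 means that share 1 reference pool. The closest pairs crossed branches: ORT1 with SER33 (r = 0.944), ARG3 with LYS12 (0.943), LYS12 with SER1 (0.935) and ARG3 with SER1 (0.931). ARG3 with ARG4 was the closest pair within a branch (0.915). GCN4 had r = -0.961 with SER33 and -0.914 with ORT1. WT-aa 30 min a, the array that stood apart, was the highest of the 20 arrays for ORT1 and SER33. It was the lowest for GCN4, ARG3, ARG4, LYS12 and SER1. That array thus enters every pair named here, and correlations without the arrays of 30 min were not computed. Each gene ranged over 0.24 to 0.819 on the log2 scale across the 20 arrays, with a median range of 0.488, against 0.508 over all features.

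Other genes of amino acid metabolism were read from the same fit. Of 27 further synthesis genes 6 passed the strain-averaged F-test, where 18.4% of all features did. Higher at 90 min were GLN1, GDH1, ARG7, PRO1 and PRO3, and GLT1 was lower. GLN1, glutamine synthetase, was 0.61 ± 0.094 higher at 90 min (adjusted p = 0.00172), more than any of the 40 genes. GDH1, an NADP-dependent glutamate dehydrogenase, was 0.27 higher at 90 min. Over the rapamycin times GDH1 was 0.32 ± 0.041 lower in Hsf1-aa than in WT-aa (adjusted p = 0.000356). This was the 1 strain difference among the 27, where 4.28% of all features passed. The change of the GDH1 difference since 0 min did not pass the F-test, where 0.551% of all features did.

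Of 24 regulators 7 passed over time (29.2%, against 18.4% of all features). Between strains over the rapamycin times 0 of 24 passed (limma, 9 of 24 at an unadjusted p under 0.05, where 32.0% of all features were). PCL5, the cyclin that directs Gcn4 to degradation and is itself a Gcn4 target, fell by 0.36 ± 0.094 at 90 min (adjusted p = 0.0419). GCN1, a partner of the kinase Gcn2, fell by 0.28 ± 0.069 (adjusted p = 0.0313). GCN2 passed over time and was 0.26 lower at 90 min. GCD11, ARG80, BAS1 and YIH1 also passed, each with its largest change at 15 min, between -0.32 and -0.19.

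Of the 5 arginine breakdown genes 2 passed over time, where 18.4% of all features did. CAR1, arginase, fell by 0.22 ± 0.061 at 90 min. CAR2, ornithine transaminase, was 0.39 ± 0.099 higher at 15 min (adjusted p = 0.0404) and 0.21 lower at 90 min. None of the 5 passed between strains over the rapamycin times, where 4.28% of all features did (limma). At an unadjusted p under 0.05 it was 2 of 5, beside the share of all features given for the regulators.

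Of 22 amino acid transporters 5 passed over time (22.7%, against 18.4% of all features), and all 5 were higher at 90 min: DIP5 (0.56), AGP1 (0.52), GAP1 (0.37), AGP2 (0.33) and MUP1 (0.15). AGP1, a broad-range permease, was 0.28 ± 0.032 lower in Hsf1-aa over the rapamycin times (adjusted p = 0.000111). DIP5, a permease of glutamate and aspartate, was 0.31 ± 0.076 higher (adjusted p = 0.0392). In that comparison 4.28% of all features passed. The change of the strain difference since 0 min did not pass for AGP1 or DIP5 in the F-test, where 0.551% of all features did. These differences were thus not shown to arise in rapamycin.

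On the standard arrays, 30 min at 7.5 µM rapamycin, the strains were close for all 40 genes. With 1 array per strain there is no test, and 0 of 40 genes differed by more than 1.5-fold, where 0.834% of all features did. The differences, Hsf1-aa minus WT-aa, ran from -0.46 for ASN1 to 0.42 for LEU1, with a median of -0.014 (all features 0.0026). ASN1 was at 0.75 in Hsf1-aa, against 1.21 in WT-aa, and LEU1 at -0.63, against -1.05. ARG3 was at -0.46 on both arrays, and SER1 at -0.18 in Hsf1-aa, against -0.16 in WT-aa. With this scaling the higher values of ARG3 and SER1 in Hsf1-aa at 30 min of the slow course were thus not seen here. LYS4 was lower in Hsf1-aa, at -0.44, against -0.21 in WT-aa. With external control centring the median difference was 0.812 over all features and 0.991 over the 40 genes. Relative to all features ARG3 then stood at 0.059, SER1 at 0.22 and LYS4 at 0.0080. The readings of SER1 and LYS4 thus depended on the scaling. Of the 40 genes 19 had the sign of the slow strain difference at 30 min.

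These arrays set labelled RNA against an unlabelled reference, so the ratio sets new RNA of a gene beside that reference. The scale is relative, since each array is centred. The values of the 40 genes were correlated between the arrays (r = 0.981 across these genes, which are not replicates, against 0.942 over all features). The titles give both arrays the same reference and the probes are the same, so this correlation says little about the strains. ILV5, acetohydroxyacid reductoisomerase, was highest at 1.61 in Hsf1-aa, against 1.51 in WT-aa. GCN4 and ASN1 came next, GCN4 at 0.90 in Hsf1-aa, against 0.84 in WT-aa. ILV6, the regulatory subunit of acetolactate synthase, was lowest at -2.32 in Hsf1-aa, against -2.37 in WT-aa, beside ARG1 at -2.06 and -2.08. Of the 40 genes 26 were below 0 on both arrays and 11 above 0 on both. The same count was not made over all features. The median of the 40 genes was -0.46 in Hsf1-aa and -0.32 in WT-aa, against 0.023 and 0.026 over all features.

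**Figure D5:**
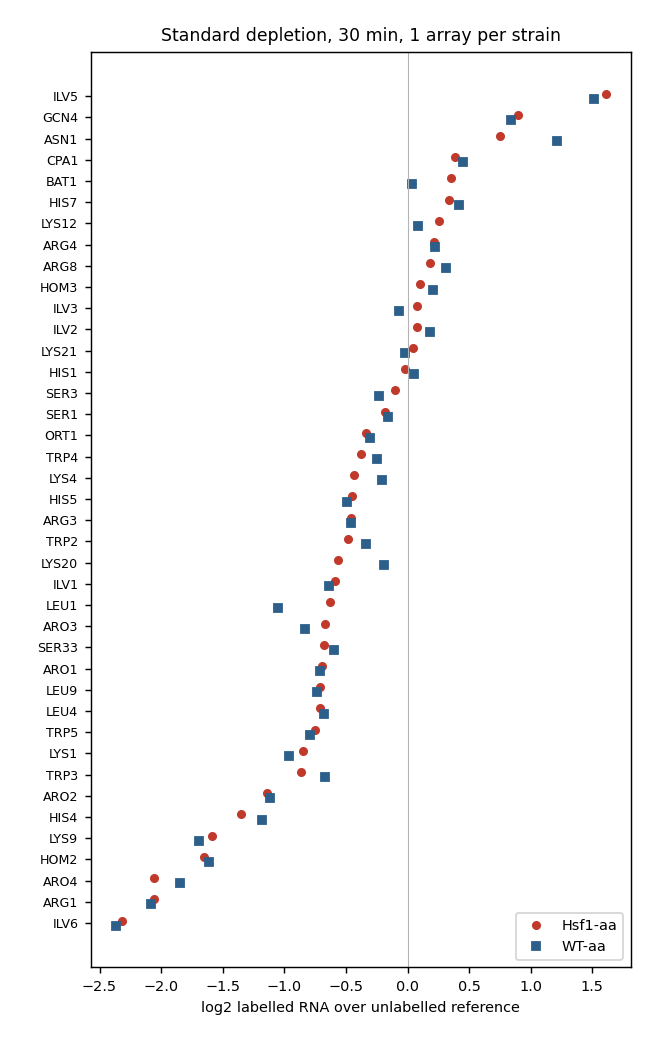
Log2 ratio of labelled RNA over the unlabelled reference at 30 min of 7.5 µM rapamycin for the 40 genes, sorted by the Hsf1-aa value, with 1 array per strain (red circles Hsf1-aa, blue squares WT-aa). The strains lie close for most genes, and ASN1 and LEU1 are the farthest apart.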

How the data were processed

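The 20 slow arrays and 2 standard arrays were grouped by strain, time and rapamycin dose from the labels. Per the file headers, the authors' scanner tables give each spot's linear intensity in both dyes, with its local background alongside and not subtracted. A further deposited table holds the authors' log2 ratio of Cy5 over Cy3. How it was normalized is not stated, and it served as an alternative. The number of arrays limits the precision.

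Intensities (Signal Mean over Background Median) were corrected by normexp (offset 50), loess-normalised within each array with control spots at weight 0, turned to sample over reference, and averaged per gene (limma 3.58.1, R 4.3.3). Values are therefore relative to the centre of their own array, and a common shift of all transcripts is lost. The genome build and scanner were not given in the sources used. Out-of-date symbols (58) were updated from a RefSeq table. Features above background by 2 background SD on at least 2 slow arrays were kept (6353).

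All 10 slow groups were fitted in 1 limma model with a dye term (9 residual degrees of freedom). Replicate letter and dye are the same factor, so that term is also the replicate block. Deviations of the letters from the group means correlated at a median of r = 0.538 between groups (range -0.399 to 0.822, over 0.1 in 40 of 45 pairs). P-values were Benjamini-Hochberg adjusted over all 6353 features, with a threshold of 0.05. Time courses were tested by moderated F-tests. The standard arrays have no test, and 1.5-fold was used. The code was tested on simulated data.

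In each comparison the genes past the threshold are named, or the 3 with the largest test statistic where fewer than 3 passed, and GCN4 is given as well. The other lists were synthesis genes, regulators, arginine breakdown genes, transporters and genes of the strain construction. The 40 genes and these lists were chosen with earlier results of these data known. Alternatives were no background correction, normexp offset 10, median centring, external control centring, Aquantile, no filter, detection on all 20 arrays, no dye term, array weights, the authors' values, each array left out, and, added after seeing the data, the 4 arrays of 30 min left out.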

Additional observations from a re-analysis of the deposited data

How the results depend on the processing

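No member count changed for the strain difference at 0, 15, 60 or 90 min or for the change of the strain difference (0 throughout), whichever alternative was run. In what follows the percentage after a count is the share of all features called in the same fit. The count at 30 min, 1 of 40, was 0 with external control centring (0.0315%), without the replicate block (0.425%) and with array weights (0.299%), and 0 to 7 (0.504% to 14.8%) with single arrays left out. The count over the rapamycin times, 3, was 0 with external control centring (0.567%), 1 without the replicate block (1.86%), 5 without the 30 min arrays (8.59%), and 1 to 15 (2.39% to 25.1%) with single arrays left out. The Hsf1-aa time course, 1 of 40, gave 0 with normexp offset 10 (4.64%), median centring (3.15%), external control centring (0.205%) and no replicate block (1.83%). It gave 2 with the authors' values (7.32%), 3 with array weights (9.37%), 9 without the 30 min arrays (20.7%), and 0 to 5 (2.33% to 12.1%) with single arrays left out. The WT-aa time course, 1 of 40, gave 0 without background correction (1.32%), with offset 10 (1.18%), median centring (0.834%) and external control centring (0%), and without the replicate block (0.472%). It gave 8 with array weights (23%), 5 without the 30 min arrays (18%), and 0 to 8 (0.598% to 19.2%) with single arrays left out. The averaged time course, 9 of 40, gave 4 with median centring (13.1%), 0 with external control centring (0.189%), 2 without the replicate block (5.1%), 19 with array weights (34.6%) and without the 30 min arrays (39.6%), and 2 to 20 (7.24% to 36%) with single arrays left out. External control centring moved the median of all features to -0.276 at 15 min and -0.0752 at 90 min in the strain average. Under it the 90 min branch medians were -0.0055 for arginine, -0.11 for histidine, -0.060 for lysine and -0.15 for the branched-chain branch, and the strain medians were -0.050 for arginine and -0.060 for lysine, beside -0.0256 over all features. ASN1 at 15 min reversed under it to -0.012, both in the single-time test and as its value for the F-test. On the standard arrays external control centring shifted all features, whose median of 0.812 was itself past 1.5-fold. All 40 genes were then past 1.5-fold as well, with a median of 0.991, so that count is not particular to them. The cause of these changes was not tested. Of the values of single genes, 527 kept their call, 281 kept their direction and lost it, and 2 reversed. Slide or scan batch was not run, since no header names one. Precision limits what could be seen: at 1 time a strain difference of 0.39 (SER1, 30 min) did not pass.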
